A study of Mus musculus with 36 samples.

Results

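The CamkII-Cre transgene was examined on its own, without a floxed gene to delete, by comparing hippocampal RNA of transgenic mice with that of littermates lacking it. The members were the arrays labelled CamkII-Cre and CamkII-wt, 24 of the 36 arrays of the series, which stood for 12 of its 23 animals. The tested mice were 6 CamkII-Cre males of 6 months, heterozygous for a transgene that expresses Cre recombinase from the Camk2a promoter. They were set against 6 CamkII-wt males of the same age without the transgene, and both groups were labelled C57BL/6J. The line had been made on a mixed CBA/J and C57BL/6J background and then backcrossed to C57BL/6J, and alleles that flank the transgene were inherited with it, so that transgene and flanking alleles cannot be told apart. The other 12 arrays came from 5 Braf-cko males and 6 Braf-flox males, all 4 months old. The Braf-cko males carried the same transgene and 2 floxed Braf alleles, and the Braf-flox males carried the floxed alleles alone. Both Braf groups had a mixed background, mostly C57BL/6J with a smaller part from FVB and a trace of another strain. Each sample was the complete hippocampus on Illumina MouseWG-6 BeadChips, so that fewer cells of a type and less RNA per cell cannot be told apart.

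Cre is a recombinase of bacteriophage P1 that cuts and rejoins DNA at loxP sites. Camk2a encodes the alpha subunit of calcium/calmodulin-dependent protein kinase II, an abundant kinase of excitatory synapses, and its promoter is used to confine Cre to principal neurons of the forebrain after birth. A transgenic Cre line can differ from wildtype mice without any loxP allele, because Cre can act on cryptic sites in the genome, because the inserted DNA can disturb a neighbouring gene and because alleles around the insertion stay linked to it. A comparison of Cre carriers with wildtype littermates therefore serves as the control for every deletion made with the line.

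The mice were the replicates of this control, and each was measured on more than 1 array. Every CamkII-Cre and CamkII-wt mouse had 2 arrays, each from 1 of 2 technical sets, and the 2 arrays of each of the 12 mice resembled each other more than any array of another mouse in the other set (Pearson r of the deviations across probes, median 0.54, range 0.35 to 0.69, across probes that are not independent). The median probe had an SD of 0.12 between the mice of a group, each taken as the mean of its 2 arrays. Between the 2 single arrays of a mouse the SD was 0.11, both on the log2 scale. Array medians lay between 64.98 and 69.1 intensity units in CamkII-Cre mice and between 65.04 and 70.2 in CamkII-wt mice. Genotype took 5.36% of the variance between the mice over all tested probes, below the 9.09% that 1 of 11 degrees of freedom would take, and the contrast of mice numbered 1 to 3 with those numbered 4 to 6 took 20.6%. That contrast, which the labels do not name, passed the threshold at 991 probes (4.25% of those tested), and the first principal component (28.4% of the variance) followed the mouse number in both groups.

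The transgene was accompanied by a lower level of 2 genes, Zfpm2 and Oxr1. The paper names both genes as differing in its own comparison of CamkIIa-Cre mice with littermates, Oxr1 with 2 transcripts, and also 3110047M12Rik. A second Oxr1 probe and the unnamed probe ILMN_1233933 fell just short here, each at an adjusted p of 0.0619 in limma. Zfpm2, also called Fog2, encodes a zinc finger cofactor of GATA transcription factors, and Oxr1 encodes a protein with a TLDc domain that protects cells against oxidative damage. Their probes ILMN_1256640 (Zfpm2) and ILMN_1230816 (Oxr1) were the 2 of 23316 tested probes that passed an adjusted p of 0.05 in limma, which is 0.00858% of the probes tested, and both were lower in CamkII-Cre mice. No probe was higher at that threshold, while 176 lower probes (0.755%) and 204 higher ones (0.875%) had an unadjusted p under 0.05, together 1.63% of the probes. That is a smaller share than the 0.05 that such a cutoff passes on average with no difference. The fit left the contrast of mice 1 to 3 with 4 to 6 in its residual spread, which can raise p-values and widen intervals.

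Zfpm2 lay at 8.38, 8.68 and 8.84 (lowest, median and highest mouse, log2 intensity) in CamkII-Cre mice, against 9.39, 9.48 and 9.70 in CamkII-wt mice. The highest transgenic mouse was below the lowest wildtype mouse. The mean was 8.66 ± 0.16 in CamkII-Cre mice and 9.53 ± 0.13 in CamkII-wt mice (SD, n = 6 each), a difference of -0.87 (standard error 0.08, 95% interval -1.03 to -0.70, adjusted p = 0.000388), or 54.8% of the wildtype intensity. The other 2 Zfpm2 probes on the array, ILMN_1239097 and ILMN_1255116, were below the filter on mean signal. Probe ILMN_1239097 averaged 5.75 ± 0.11 in CamkII-Cre mice and 5.74 ± 0.07 in CamkII-wt mice (exact permutation test, two-sided, p = 0.742). The lower signal was thus measured on 1 probe of the gene.

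Oxr1 was lower at each of its 3 probes, though 1 of them passed. ILMN_1230816 lay at 8.69, 8.75 and 9.05 in CamkII-Cre mice, against 9.54, 9.80 and 10.2 in CamkII-wt mice, again without overlap. The means were 8.82 ± 0.16 in CamkII-Cre mice and 9.85 ± 0.23 in CamkII-wt mice, a difference of -1.03 (standard error 0.10, 95% interval -1.248 to -0.81, adjusted p = 0.000779), or 49.0% of the wildtype intensity.

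The second Oxr1 probe, ILMN_2697390, lay at 8.72, 9.05 and 9.35 in CamkII-Cre mice, against 9.55, 9.86 and 10.1 in CamkII-wt mice. The groups did not overlap, and the difference of -0.82 (standard error 0.12, 95% interval -1.08 to -0.56) had an adjusted p of 0.0619. This probe passed with mice 1 to 3 and 4 to 6 as blocks (adjusted p = 0.00566), and under 10 of 24 alternative settings in all, with adjusted p-values of 0.000362 to 0.936. The third, dimmer probe, ILMN_2639491, differed by -0.55 (95% interval -0.85 to -0.24, adjusted p = 1.00), and its highest transgenic mouse, at 7.34, lay within the wildtype range of 6.85 to 7.43. Groups without overlap were found at 19 tested probes, 0.0815% of all, and 9 of them (0.0386%) were lower in CamkII-Cre mice. With no difference, groups of this size would lack overlap with a probability of 0.00216, a larger share than was found. A lack of overlap alone is therefore weak evidence of a difference.

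Probe ILMN_1233933, which has no gene in the annotation used here and was singled out once its values were known, showed a difference of like size. The paper also names the transcript 3110047M12Rik for this comparison. The change of ILMN_1233933 in Braf-cko mice was of the size that the paper lists for that transcript. The annotation does not tell whether the probe measures it. ILMN_1233933 lay at 7.87, 8.12 and 8.58 in CamkII-Cre mice, against 8.47, 9.09 and 9.17 in CamkII-wt mice. The difference was -0.85 (standard error 0.13, 95% interval -1.12 to -0.57, adjusted p = 0.0619). A single wildtype mouse, number 6, reached into the transgenic range. The probe passed under 11 of 24 alternative settings, with adjusted p-values of 3.99e-05 to 0.936.

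**Figure D1:**
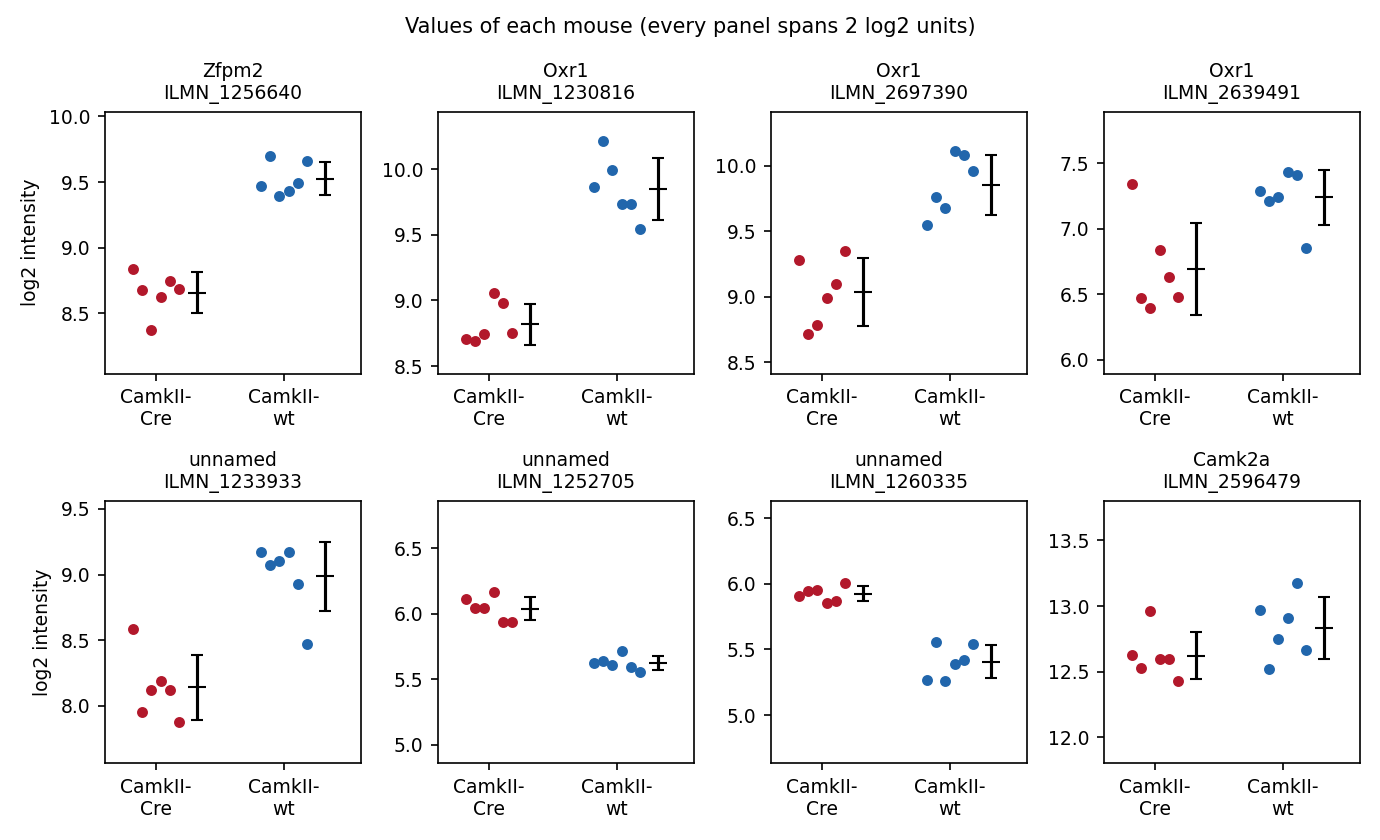
Log2 intensity of each mouse (points, mean of its 2 arrays) for CamkII-Cre mice, left, and CamkII-wt mice, right, at the Zfpm2 probe, the 3 Oxr1 probes, 3 unnamed probes and the brightest Camk2a probe. Bars are the mean and SD of 6 mice and each panel spans 2 log2 units. The groups are apart at Zfpm2, at 2 of the Oxr1 probes and at the 2 dim unnamed probes, and they overlap at Camk2a.

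The size of the differences was also read within the technical sets and within parts of the mice. The probes were picked on all the mice, and groups without overlap keep their sign in any part. The technical sets hold the same mice, so these values describe size and are no independent support. At Zfpm2 the difference was -0.86 on the arrays of technical set 1 and -0.88 on those of set 2, and it was -0.89 among mice 1 to 3 and -0.84 among mice 4 to 6. At Oxr1 ILMN_1230816 it was -1.04 and -1.01 in the technical sets, -1.31 among mice 1 to 3 and -0.74 among mice 4 to 6. At ILMN_1233933 it was -0.90 and -0.80 in the technical sets, -0.90 among mice 1 to 3 and -0.80 among mice 4 to 6.

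Zfpm2 and Oxr1 are both on chromosome 15, where no other protein-coding gene stands between them in the RefSeq gene order (GRCm38.p6, used for order only). The nearest measured neighbours did not share the difference. Lrp12, a lipoprotein receptor gene on the Zfpm2 side, differed by 0.01 (95% interval -0.10 to 0.12), and Angpt1, an angiopoietin gene on the Oxr1 side, by 0.11 (95% interval -0.11 to 0.34). Over the 5 measured genes on either side, the differences ran from -0.20 to 0.11, the first at Trhr, the receptor of thyrotropin-releasing hormone, with an interval of -0.82 to 0.43. None of these 10 genes passed the threshold.

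Among the probes below the filter, 2 were higher in CamkII-Cre mice when all 46632 probes were fitted, where 6 probes (0.0129%) passed. Neither has a gene in the annotation. ILMN_1260335 lay at 5.86, 5.93 and 6.00 in CamkII-Cre mice, against 5.26, 5.403 and 5.56 in CamkII-wt mice, a difference of 0.52 (standard error 0.06, adjusted p = 0.00249 over all probes). ILMN_1252705 lay at 5.94, 6.04 and 6.16 in CamkII-Cre mice, against 5.56, 5.62 and 5.71 in CamkII-wt mice, a difference of 0.42 (standard error 0.05, adjusted p = 0.00636). At neither probe did the groups overlap. Both mean levels were under the filter, where an intensity also holds background signal. These are therefore differences of intensity, and the size of any transcript difference is not known.

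Beyond these probes, the normalized intensities of the groups lay close together. The median difference over the tested probes was 0.00, 90% of them lay between -0.10 and 0.11, and 98% between -0.17 and 0.18. Normalization can remove a shift shared by most probes, so the median near 0 does not test for one. In all, 65 probes differed by over 0.3 and 14 by over 0.5, either way. Neither Ttr, whose difference was the highest, nor Pisd-ps3, whose difference was the lowest at -1.09 (95% interval -2.44 to 0.26), had an interval that left out 0.

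**Figure D2:**
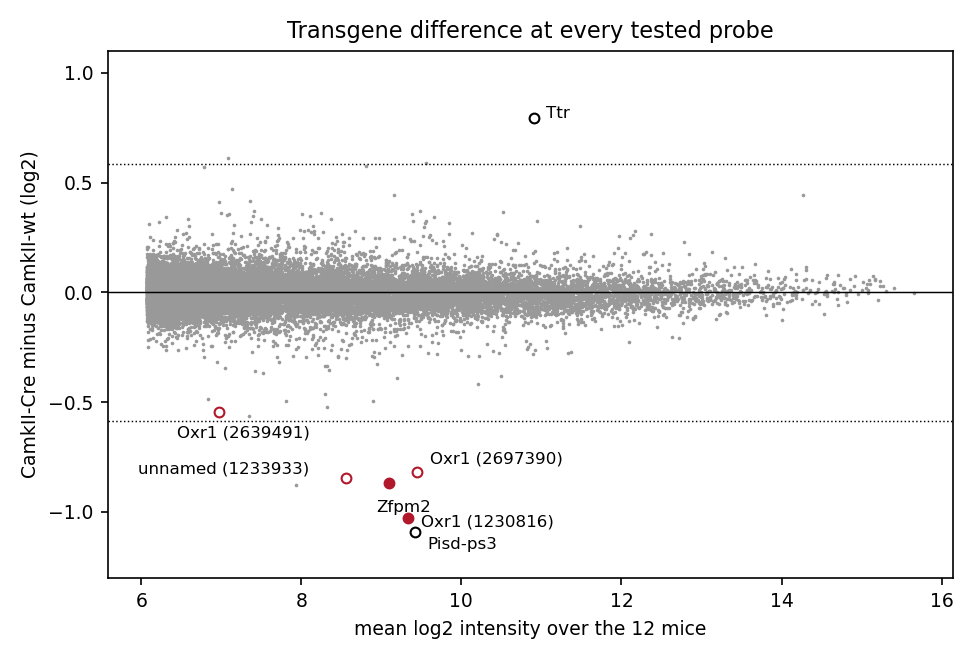
Difference between CamkII-Cre and CamkII-wt mice (log2) against the mean log2 intensity of the 12 mice, for the 23316 tested probes. Filled red circles passed the adjusted threshold, open red circles are the other Oxr1 probes and ILMN_1233933, black circles are Ttr and Pisd-ps3, and dotted lines stand at 1.5-fold. The 5 red probes are the ones named in the text, and most grey points lie within 0.1 of 0.

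The genes next in order did not pass the test. Among the 10 lower named genes that had the smallest p and lay below the wildtype mean in 6 of 6 CamkII-Cre mice, differences ran from -0.52 to -0.20. Taf15, an RNA-binding protein of the FET family, differed by -0.52 (95% interval -0.85 to -0.19), and Papola, the nuclear poly(A) polymerase, by -0.49 (95% interval -0.81 to -0.18). Rims4, a member of the family of active zone RIM proteins, differed by -0.49 (95% interval -0.78 to -0.19). Obsl1, a cytoskeletal adaptor, and Luc7l, a splicing factor, were the 2 of the 10 without overlap, at -0.26 and -0.24. The others were Cnr1, the neuronal cannabinoid receptor, Setd5, Fuz, Wfdc1 and Tspan18. The Cnr1 probe that differed by -0.22 was not its brightest, which differed by -0.15.

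Among the 10 higher ones, differences ran from 0.16 to 0.41. Ccdc80, a secreted matrix protein, differed by 0.41 (95% interval 0.16 to 0.66), and Dusp3, a phosphatase that can act on ERK and JNK, by 0.36 (95% interval 0.12 to 0.60). Sync (syncoilin, an intermediate filament protein), Rbks (ribokinase), Zfp106 and Rpe (an enzyme of the pentose phosphate pathway) were without overlap, at 0.18, 0.23, 0.17 and 0.16. The others were Eed, a subunit of Polycomb repressive complex 2, Mctp1, 2610008E11Rik and Aspg. The adjusted p of each of these 20 genes was 1.00.

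The intervals say which transgene effects the data leave room for, relative to the other probes of the normalized arrays. The 95% interval of the median tested probe reached 0.15 log2 units to either side of its estimate, a factor of 1.11, and for 90% of the probes this reach lay between 0.11 and 0.28. The interval lay wholly between 80% and 125% of the wildtype level at 21088 tested probes (90.4%), within 1.5-fold, up or down, at 23096 (99.1%) and within 2-fold at 23279 (99.8%). The narrowest was that of Psmb10, a subunit of the immunoproteasome, whose 12 mice lay between 9.84 and 9.92 and whose difference was -0.01 (95% interval -0.09 to 0.08). Equivalence tests adjusted over all tested probes, in which a probe passes if both a rise and a fall of a stated size can be rejected, passed 94.0% of the probes at 80% to 125%, 99.4% at 1.5-fold and 99.9% at 2-fold.

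An interval for each probe holds for that probe and not for all together. With intervals wide enough to hold for all 23316 probes at once (Bonferroni), 52.3% of the probes lay within 1.5-fold and 93.0% within 2-fold, while 7 probes lay within 80% to 125%. The limits were also not equal over signal. Over 5 equal bins of mean intensity, the share within 80% to 125% was 96.4% in the dimmest, 92.6%, 84.8% and 86.0% in the bins between, and 92.4% in the brightest. Background signal is part of a dim intensity, so the limits for the dimmest bin are limits on intensity and not on the transcript. By gene, 11617 of the 11722 named genes had an interval within 1.5-fold at their brightest tested probe.

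**Figure D3:**
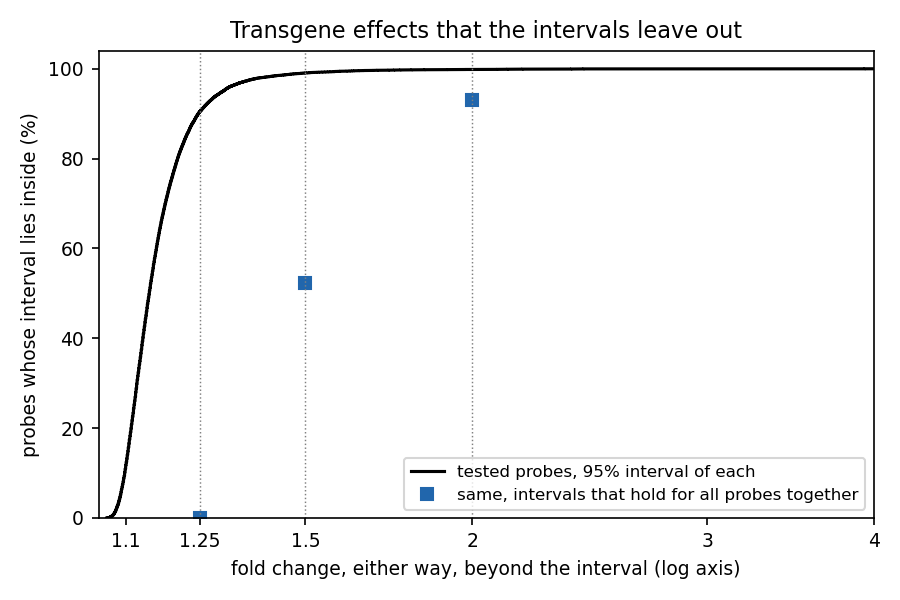
Share of the 23316 tested probes (%) whose 95% interval of the CamkII-Cre against CamkII-wt difference lies within the fold change on the horizontal, logarithmic axis, up or down. The curve passes 99.1% at 1.5-fold and 99.8% at 2-fold, and squares show the share for intervals that hold for all probes together, 52.3% at 1.5-fold and 93.0% at 2-fold.

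The interval reached 2-fold at 37 tested probes, which were 28 probes of 27 named genes and 9 unnamed ones. At 31 of them it included 0, so that neither a difference nor its absence was measured. Among the 37 were 7 of the 9 measured markers of the choroid plexus, the secretory epithelium of the ventricles that adjoins the hippocampus. The widest interval of all tested probes was that of Ttr (transthyretin, the thyroid hormone carrier of cerebrospinal fluid), which lay at 9.45, 9.82 and 14.69 in CamkII-Cre mice, against 7.23, 9.28 and 14.95 in CamkII-wt mice. Its difference of 0.79 had an interval of -2.24 to 3.83. CamkII-Cre mice 2 and 5 and CamkII-wt mice 3 and 4 held Ttr levels of 14.3 to 14.95, and the other 8 mice lay between 7.23 and 10.2. The same 4 mice were the highest for Clic6, Folr1, Aqp1, Sostdc1, Kl and Calml4, but not for Igf2 and Otx2. The mean level of the 9 measured choroid plexus markers ran from 7.41 to 9.62 in CamkII-Cre mice and from 6.94 to 10.3 in CamkII-wt mice. Without CamkII-wt mouse 3, the highest for 8 of the 9, both Zfpm2 and Oxr1 ILMN_1230816 still passed. The part of tissue content in these wide intervals, and in others such as those of Zic1, Ebf3 and Trh, was not tested.

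Genes that Cre could have been thought to disturb were described by list, and the lists were chosen with earlier results of these data known. Listed genes below the filter were left out of the counts that follow. Of 379 genes in the 29 lists that were tested at their brightest probe, 1 passed the threshold in limma, Zfpm2, since the brightest Oxr1 probe was ILMN_2697390. An unadjusted p under 0.05 was met by 14 (3.69%), beside 1.76% of all named genes, and the interval lay within 1.5-fold for 362. List medians ran from -0.15 to 0.10, beside -0.002 for all 11722 named genes.

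Targets of p53 and other genes of the DNA damage response, which Cre can induce by cutting cryptic sites, did not pass where tested. Of the 23 listed genes on the array, 6 lay below the filter of the main test. None of 17 measured genes passed, none had an unadjusted p under 0.05, and their median was -0.03. Cdkn1a, the cell cycle inhibitor p21, lay at 8.4995, 8.79 and 8.99 in CamkII-Cre mice, against 8.52, 8.98 and 9.52 in CamkII-wt mice, a difference of -0.22 (95% interval -0.50 to 0.07). Mdm2, the ubiquitin ligase that degrades p53, differed by -0.10 (95% interval -0.21 to 0.02). Each of the 17 intervals lay within 1.5-fold and 16 within 80% to 125%. Among 15 apoptosis genes the median was -0.02, none had an unadjusted p under 0.05, and each interval lay within 80% to 125%, the widest being that of the caspase activator Apaf1.

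The neighbours by function of the 2 lower genes did not share their difference. Of the 25 measured genes of oxidative stress defence, none passed and none had an unadjusted p under 0.05, the median was 0.00, and each interval lay within 1.5-fold. Srxn1 (sulfiredoxin) differed by -0.15 (95% interval -0.35 to 0.04) and Nqo1, a quinone reductase, by -0.14 (95% interval -0.38 to 0.11). Within the TLDc family, Tbc1d24, which acts in vesicle trafficking, differed by -0.15 (95% interval -0.28 to -0.02, adjusted p = 1.00), and Meak7 by 0.11 (95% interval -0.07 to 0.30). Among the 14 measured FOG and GATA partners beside Zfpm2 itself the median was 0.03 and none passed, and Chd4, the helicase of the NuRD complex that FOG proteins recruit, differed by 0.18 (95% interval -0.000462 to 0.36).

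No subunit gene of the kinase whose promoter drives Cre passed the threshold. The brightest Camk2a probe lay at 12.4, 12.6 and 13.0 in CamkII-Cre mice, against 12.5, 12.8 and 13.2 in CamkII-wt mice, a difference of -0.21 with an interval of -0.44 to 0.02. The 2 other Camk2a probes differed by -0.22 (95% interval -0.70 to 0.26) and 0.06 (95% interval -0.14 to 0.25). The beta subunit gene Camk2b differed by -0.01 (95% interval -0.16 to 0.14), and Camk2g, the gamma subunit gene, by 0.07 (95% interval -0.09 to 0.22), each at its brightest probe. Over the 10 probes of Camk2d, the delta subunit gene, 7 of which were tested, differences ran from -0.14 to 0.13. Camk2n1, an inhibitor of the kinase, differed by 0.03 (95% interval -0.08 to 0.15). At the brightest probe, a level of Camk2a down to 73.9% of wildtype and up to 101.5% stayed within the interval.

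Braf and the genes of the signaling cascade it belongs to did not pass the threshold. Braf itself had 1 probe, close to the filter, at 6.03, 6.13 and 6.20 in CamkII-Cre mice, against 5.96, 6.08 and 6.24 in CamkII-wt mice, a difference of 0.02 (95% interval -0.11 to 0.15). Of 16 measured genes of the Raf-MEK-ERK cascade none passed, 2 had an unadjusted p under 0.05, and the median was 0.04. These were Nf1 (neurofibromin, which turns Ras off), at 0.25 (95% interval 0.08 to 0.42), and the Ras exchange factor Sos2, at 0.17 (95% interval 0.03 to 0.31). Of 13 ERK feedback and ETS genes none passed, with a median of -0.02. Dusp6, a phosphatase that ERK induces and that turns ERK off, lay at 9.25, 9.43 and 9.51 in CamkII-Cre mice, against 9.09, 9.25 and 9.36 in CamkII-wt mice, a difference of 0.16 (95% interval 0.02 to 0.30, adjusted p = 1.00). Another tested Dusp6 probe, ILMN_2701321, differed by 0.05 (95% interval -0.16 to 0.26). The intervals of both lists lay within 1.5-fold.

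Immediate early genes, which neurons switch on with activity, had a median of 0.05, with 13 of 18 above 0 and none past the threshold or at an unadjusted p under 0.05. Junb lay at 9.40, 9.57 and 10.2 in CamkII-Cre mice, against 8.65, 9.50 and 9.84 in CamkII-wt mice, and its interval of -0.07 to 0.71 was the one of the 18 that reached past 1.5-fold. Egr1 differed by 0.12 (95% interval -0.07 to 0.31) and Npas4 by 0.20 (95% interval -0.06 to 0.46). All 22 measured neuropeptide and granule genes had intervals within 1.5-fold, with differences from -0.15 at Adcyap1 to 0.06 at Chga. The same was true of 15 glutamate receptor genes, with a median of -0.01, and of 5 GABA-A receptor subunit genes, with a median of -0.07 and Gabra2 the lowest at -0.22 (95% interval -0.51 to 0.07). The 17 heat shock and endoplasmic reticulum stress genes had a median of 0.02. The 17 circadian clock genes had a median of 0.02, with Nr1d1 the highest at 0.17 (95% interval -0.02 to 0.37).

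**Figure D4:**
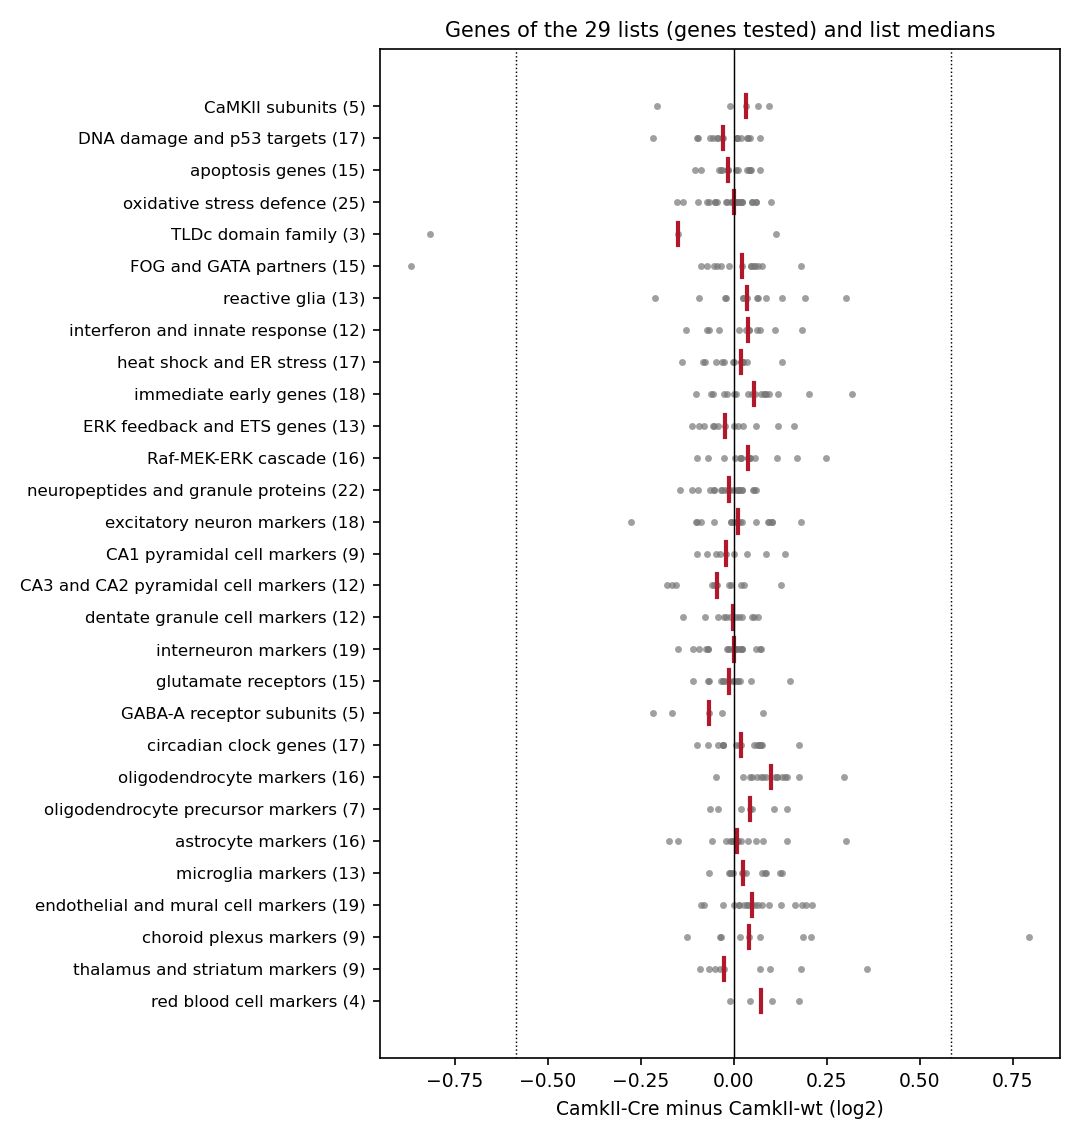
Difference between CamkII-Cre and CamkII-wt mice (log2, horizontal axis) for each tested gene of the 29 lists at its brightest probe (grey points) and the list median (red bars), with the number of genes in brackets. Dotted lines stand at 1.5-fold. The points beyond them are Oxr1, Zfpm2 and Ttr.

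Markers of the cell types were measured in both groups, and none passed the threshold. Oligodendrocyte markers had the highest list median, 0.10, and 15 of 16 were above 0, beside 48.4% of all named genes. Opalin, a myelin membrane protein, lay at 9.36, 9.73 and 9.93 in CamkII-Cre mice, against 9.12, 9.38 and 9.65 in CamkII-wt mice, a difference of 0.30 (95% interval 0.06 to 0.54, adjusted p = 1.00). The mean level of the 16 ran from 10.4 to 10.8 in CamkII-Cre mice and from 10.3 to 10.5 in CamkII-wt mice. Endothelial and mural markers had a median of 0.05, with 16 of 19 above 0 and the adhesion molecule Pecam1 at 0.21 (95% interval 0.02 to 0.40). Opalin and Pecam1 were the 1 gene of each list with an unadjusted p under 0.05, and the intervals of both lists lay within 1.5-fold.

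Among 13 reactive glia genes the median was 0.04 and none passed, while 2 had an unadjusted p under 0.05. Gfap, the astrocyte intermediate filament that rises in reactive astrocytes, lay at 11.3, 11.6 and 11.96 in CamkII-Cre mice, against 10.8, 11.5 and 11.7 in CamkII-wt mice, a difference of 0.30 (95% interval 0.02 to 0.59, adjusted p = 1.00), so that a rise of up to 1.502-fold stayed possible. Aspg differed by 0.19 (95% interval 0.06 to 0.32), and Lcn2 had the widest interval of the list, -0.98 to 0.55. The 16 astrocyte markers had a median of 0.01, the 13 microglia markers one of 0.02 with every interval within 80% to 125%, and the 12 interferon and innate response genes one of 0.04. Ifitm3, an interferon-induced membrane protein, was the interferon gene with an unadjusted p under 0.05, at 0.18 (95% interval 0.03 to 0.33).

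Markers of excitatory neurons bore on the cells that express the transgene, and interneuron markers were measured beside them. The 18 excitatory neuron markers had a median of 0.01 and a mean level of 10.5 to 10.7 in CamkII-Cre mice and of 10.5 to 10.6 in CamkII-wt mice. Slc17a7, the vesicular glutamate transporter of these neurons, differed by 0.18 (95% interval -0.06 to 0.42), and Dlg4, the postsynaptic scaffold PSD-95, by -0.28 (95% interval -0.69 to 0.14), the one interval of the 18 past 1.5-fold. Pyramidal cell markers of CA1 (9 genes) had a median of -0.02 and those of CA3 and CA2 (12 genes) one of -0.05. In each of these lists 1 interval reached past 1.5-fold, that of Dcn in CA1 (-0.91 to 0.71) and that of Nnat in CA3 and CA2 (-0.79 to 0.46). Amigo2, an adhesion molecule of CA2 and CA3, differed by -0.18 (95% interval -0.32 to -0.04, adjusted p = 1.00). The 12 dentate granule cell markers had a median of 0.00 and intervals within 80% to 125%, and the 19 interneuron markers had a median of 0.00 and intervals within 1.5-fold. Of the remaining lists, 7 oligodendrocyte precursor markers had a median of 0.04, 4 red blood cell markers one of 0.07 and 9 markers of thalamus and striatum one of -0.03, with Zic1 at 0.36 (95% interval -0.50 to 1.22).

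Probes that differed between Braf-cko and Braf-flox mice gave a second view of the transgene, since Braf-cko mice carried it and their littermates did not. The comparisons share no mouse. In the Braf comparison 124 probes (0.532% of those tested) passed, 87 lower (0.373%) and 37 higher (0.159%) in Braf-cko mice, and 121 of them were tested for the transgene as well. The 3 Oxr1 probes, Zfpm2 and ILMN_1233933 were among these. Zfpm2 differed by -0.87 between CamkII-Cre and CamkII-wt mice and by -0.90 between Braf-cko and Braf-flox mice. ILMN_1233933 differed by -0.85 in both comparisons. The Oxr1 probes ILMN_1230816, ILMN_2697390 and ILMN_2639491 differed by -1.03, -0.82 and -0.55 in the transgene comparison and by -0.78, -0.92 and -0.63 in the Braf comparison. The test of the difference between the changes did not pass at Zfpm2, at ILMN_1233933 or at any Oxr1 probe. Without a filter, all 6 probes that passed for the transgene also passed in the Braf comparison, in the same direction. The 2 dim unnamed probes were among them, ILMN_1260335 at 0.59 and ILMN_1252705 at 0.79 in Braf-cko against Braf-flox mice.

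At the other 116 of these probes the transgene difference was near 0. Their median difference was -0.01 between CamkII-Cre and CamkII-wt mice, with a range of -0.20 to 0.16 and 2 probes at an unadjusted p under 0.05, against a median of -0.46 between Braf-cko and Braf-flox mice. The transgene interval left out the full Braf-cko change at 115 of the 116, the exception being Ehd1, an endosomal trafficking gene, and left out even 50% of it at 90. These counts take the Braf-cko change as exact, and choosing probes by that change can enlarge it. The test of the difference between the changes, in 1 fit of 23 mice, passed at 36 of the 116, and at 0.184% of all probes tested. The 116 were chosen for their Braf-cko change, which is part of that difference, so their higher share follows from the choice. The Braf experiment differed from this one in age, in genetic background and in normalization, so that the difference of changes also holds these.

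Among the 12 named genes with the smallest adjusted p in the Braf comparison, the last 5 of which tied at 0.00267, each but Oxr1 had a transgene interval that included 0. Npy, an inhibitory peptide of interneurons, differed by 0.01 (95% interval -0.22 to 0.23) in CamkII-Cre mice, beside -1.18 in Braf-cko mice. Cyp26b1, which degrades retinoic acid, differed by 0.04 (95% interval -0.19 to 0.27), beside -1.46 in Braf-cko mice. The intervals of Efcab6, Ky, Rasd1, Igfbp4, Etv5, Rasl10a, Scg5 and Crhbp lay between -0.34 and 0.26, and each of these left out 50% of the change in Braf-cko mice. That of Camk1g, -0.31 to 0.29, did not.

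**Figure D5:**
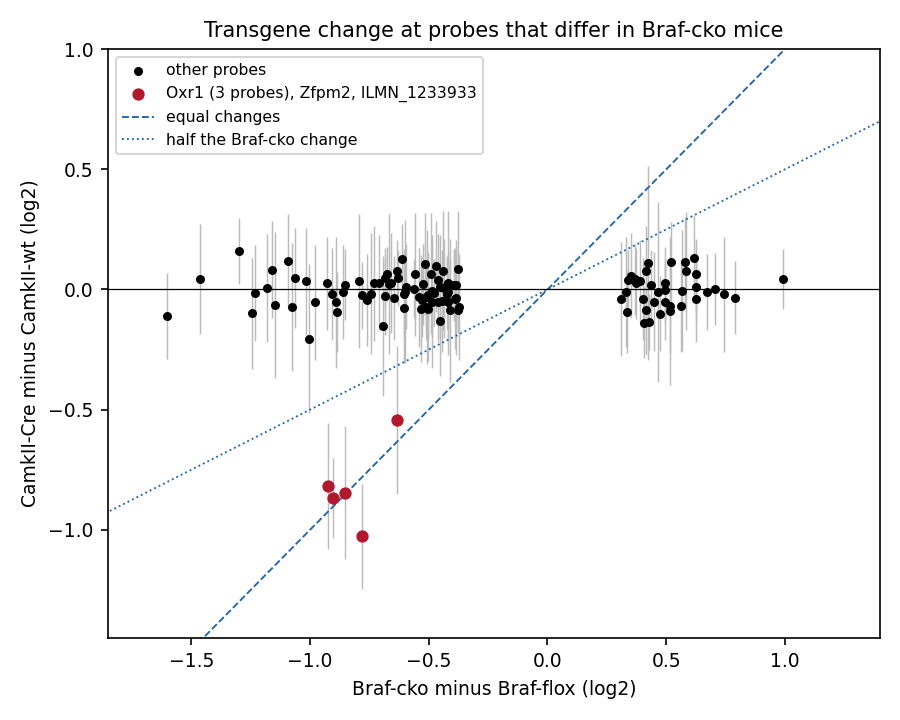
Difference between CamkII-Cre and CamkII-wt mice (log2, vertical axis, with 95% intervals) against that between Braf-cko and Braf-flox mice (log2, horizontal axis), for the 121 probes that passed in the Braf comparison and were tested in both. The 3 Oxr1 probes, Zfpm2 and ILMN_1233933 (red) lie near the dashed line of equal changes, and the other 116 probes (black) lie between -0.20 and 0.16 on the vertical axis.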

How the data were processed

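RNA of the complete hippocampus was hybridised to Illumina MouseWG-6 v1.1 BeadChips. With beadarray, limma and vsn in R, the authors made the normalized intensity (linear scale) that they deposited for each probe and array, and further settings are not given in the sources used here. These intensities were taken to log2, each probe was centred within each technical set and the 2 arrays of a mouse were averaged. In a second table, 72 columns of signals before normalization carry no sample label and were not used, so that detection is unknown.

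The 23316 of 46632 probes with the higher mean (50%) were tested in limma 3.58.1 (R 4.3.3, statmod 1.5.0) by lmFit and eBayes (two-sided), p-values were adjusted by Benjamini-Hochberg, and the threshold was 0.05. The moderated variance had 14.5 degrees of freedom and gave the 95% intervals. Mice are the replicates, and their number limits the precision. The labels give biological replicates, and litters are not known.

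Names came from the platform annotation (1 symbol for 29976 probes, several for 10, none for 16646), and 29921 probes were matched to RefSeq identifiers. The text names genes past the threshold with all their probes, the 10 lower and 10 higher ones next in order that moved alike in 6 of 6 mice, CaMKII subunits and Braf, up to 4 members of a list with the smallest p, the 10 genes with the smallest adjusted p in the Braf comparison and 2 tied with them, and the widest and narrowest intervals. The remaining probes and genes named were picked once their values were known. The members, lists and alternatives were chosen with earlier results of these data known.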

Additional observations from a re-analysis of the deposited data

Results flagged for a closer look

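Of 100 groups of 6 mice examined at the probes named outside the lists, 3 held a mouse far from the others, where chance gives about 1 in 20. The lowest CamkII-Cre mouse at the Camk2d probe ILMN_1217600, number 2, had 5.96, against 6.13 to 6.22 in the other CamkII-Cre mice. The lowest CamkII-Cre mouse at the Camk2d probe ILMN_2446383, number 6, had 5.09, against 5.32 to 5.45 in the others. At ILMN_1233933 the lowest CamkII-wt mouse, number 6, had 8.47, against 8.93 to 9.17 in the others. The probes ILMN_1252705 and ILMN_1260335 lay below the filter and outside the main test, and they were higher in CamkII-Cre than in CamkII-wt mice by 0.42 and 0.52.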

How the results depend on the processing

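Zfpm2 passed under all 24 alternatives and Oxr1 ILMN_1230816 under 23, with differences of -0.90 to -0.81 and of -1.09 to -0.95. The exception for Oxr1 was the t-test that the methods name for the study's statistics in general, not for the arrays (-1.03, adjusted p = 0.0519), under which 1 probe passed. The count of probes past the threshold was 6 with no filter (4 lower, 2 higher) and 4, all lower, with the upper 25% of probes, with mice 1 to 3 and 4 to 6 as blocks, with technical set 1 alone, with 24 arrays and the mouse as a random block, with a trend and robust variance and in 1 fit of 23 mice. It ran from 2 to 4 when each mouse was left out in turn, with 4 without CamkII-Cre mouse 1. Oxr1 ILMN_2697390 passed under 10 alternatives and ILMN_1233933 under 11. The number of lists with a gene past the threshold was 1, and 2 wherever the second Oxr1 probe also passed, with 1 to 2 when a mouse was left out. Same-numbered mice did not deviate together in every pair (r from -0.24 to 0.59 over 6 pairs, 2 of 6 highest with their own number), so the numbers were not taken as pairs, and with the replicate block 3 probes passed.

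The share of probes within 1.5-fold ran from 98.7% to 99.6% and that within 80% to 125% from 79.1% to 95.02%, except that Bonferroni intervals gave 52.3% and 0.030%. The lowest share within 80% to 125%, 79.1%, came from technical set 2 alone. Of 667 list medians recomputed, 7 moved by more than the SD between mice, and the largest move was that of the TLDc family with the upper 25% of probes, to -0.82, where fewer genes were left. Of the Braf probes, 74.4% had a transgene interval that left out 50% of the Braf-cko change, 56.2% at an adjusted p of 0.2 and 78.9% with no filter. Without detection values, signal over background is known only through the filter.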
